A study of Saccharomyces cerevisiae with 3 samples.

Results

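The genes described here are the 8 that encode the subunits of the CCT chaperonin of budding yeast (TCP1, which encodes subunit 1, and CCT2 to CCT8). They were found by their symbols in the annotation of the array platform, where all 8 are among the 4069 named genes, each measured by 7 spots. RNA came from 3 independent cultures of the wild-type haploid strain BY4741, in which HIS3, LEU2, MET17 and URA3 are deleted in whole or in part, grown in rich medium (YPD) at mid-log phase. For each culture, RNA from cells in 0.4 M NaCl (labelled with Cy3) and from untreated cells (Cy5) was set against each other on 1 two-colour array. The labels and the study's methods for these arrays give 15 minutes of osmostress, while a sentence in its results gives a shorter time. Values are log2 ratios of NaCl over untreated cells, so that 0 is no change and -1 is a level 2-fold lower.

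CCT, also called TRiC, is the chaperonin of the eukaryotic cytosol. Its 8 related subunits form a ring, and a pair of such rings stacked back to back encloses newly made proteins and folds them with the energy of ATP. Actin and the tubulins are its best known substrates, prefoldin hands unfolded chains over to it, and each of the 8 subunits is essential in yeast. In yeast, CCT and prefoldin are counted among the chaperones that serve protein synthesis, as distinct from the heat shock proteins that are induced when proteins are damaged.

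The dyes were not exchanged between arrays, so an effect of NaCl and a dye effect particular to a gene cannot be told apart. The deposited ratios have a median near 0 over genes on every array (from -0.02 to -0.0010), and a shift common to the whole transcriptome could not be seen in them. Across genes, replicates 2 and 3 correlated best (Pearson's r = 0.971) and replicates 1 and 3 least (0.890), with 0.931 for replicates 1 and 2. Spot brightness was not analysed here. The 4 genes deleted in BY4741 had mean ratios from -0.06 to 0.03. The table of values states neither the direction nor the log base of the ratio. The direction was read from genes whose induction by salt is well known. STL1, CTT1, GPD1, HSP12 and ALD3 had mean values from 4.18 to 8.04 and were above 0 on all 3 arrays, as were all 385 genes of the study's osmoresponsive table that carry a name on the array. The study chose that table from its own microarray data at a fold threshold whose log2 is 0.81. The signs of its genes are therefore not independent support for the direction. For the log base, the lowest gene of the table, at 0.72 here, was set against the log2 (0.81), ln (0.56) and log10 (0.24) of the threshold. It was nearest to the log2 but below it, so the base is not settled by this. Base 2 was taken, and all folds given here rest on it. None of the 8 CCT genes is in the table, as follows from their means below 0.

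Upon osmostress, transcripts of 6 of the 8 subunits fell and none rose, at an adjusted p under 0.05 from limma, a linear model with an empirical Bayes step, with Benjamini-Hochberg adjustment over 4069 genes. CCT7, CCT6, CCT5, CCT2, TCP1 and CCT4 fell, to levels from 1.48-fold lower for CCT7 to 1.25-fold lower for CCT4. CCT3 and CCT8 did not pass the test. By the same test 27.9% of all genes fell and 26.9% rose, and these shares are to be held beside the 6 and 0 of 8. All 8 subunits had a mean below 0, which held for 50.6% of all genes, and 6 were below 0 on all 3 arrays, which held for 37.3%. None was 2-fold lower or more, as 3.69% of all genes were.

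CCT7, the eta subunit, was the lowest of the 8. Its log2 ratios were -0.60, -0.67 and -0.43 in replicates 1, 2 and 3, with a mean of -0.57 ± 0.12 (SD, n = 3) and an adjusted p of 0.00169 from limma. It was well below 0 in every culture, and its call held when any single replicate was left out (highest adjusted p = 0.0236).

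CCT6, the zeta subunit, had log2 ratios of -0.26, -0.52 and -0.61, with a mean of -0.46 ± 0.18 (SD, n = 3, adjusted p = 0.00647 from limma). It was the only subunit whose highest value was that of replicate 1. CCT5, the epsilon subunit, stood at -0.67, -0.44 and -0.22, with nearly the same mean of -0.44 ± 0.23 (SD, n = 3, adjusted p = 0.0106 from limma). The array on which CCT5 was lowest was thus the one on which CCT6 was highest.

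CCT2, the beta subunit, had log2 ratios of -0.58, -0.35 and -0.28 (mean -0.40 ± 0.16, SD, n = 3, adjusted p = 0.0106 from limma). CCT4, the delta subunit, had -0.50, -0.27 and -0.20 (mean -0.32 ± 0.15, SD, n = 3, adjusted p = 0.0259 from limma). On each array CCT4 lay above CCT2 by almost the same step, 0.09, 0.08 and 0.07 on the log2 scale.

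TCP1, the alpha subunit, had log2 ratios of -0.66, -0.27 and -0.16, with a mean of -0.36 ± 0.26 (SD, n = 3, adjusted p = 0.0312 from limma). Its value in replicate 1 was far below the others, and its spread over arrays was, with that of CCT3, the widest of the 8.

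The remaining subunits were closest to 0. CCT3, the gamma subunit, was at -0.40 in replicate 1 but at 0.05 and 0.07 in replicates 2 and 3 (mean -0.09 ± 0.26, SD, n = 3, adjusted p = 0.527 from limma). CCT8, the theta subunit, was at -0.18, -0.10 and 0.01 (mean -0.09 ± 0.10, SD, n = 3, adjusted p = 0.452 from limma). Both therefore had values on either side of 0. The 95% interval of the mean, with the spread moderated by limma, ran from -0.37 to 0.18 for CCT3 and from -0.31 to 0.13 for CCT8, so that a fall as large as the mean of TCP1 or CCT4 lay inside the first but not inside the second.

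**Figure D1:**
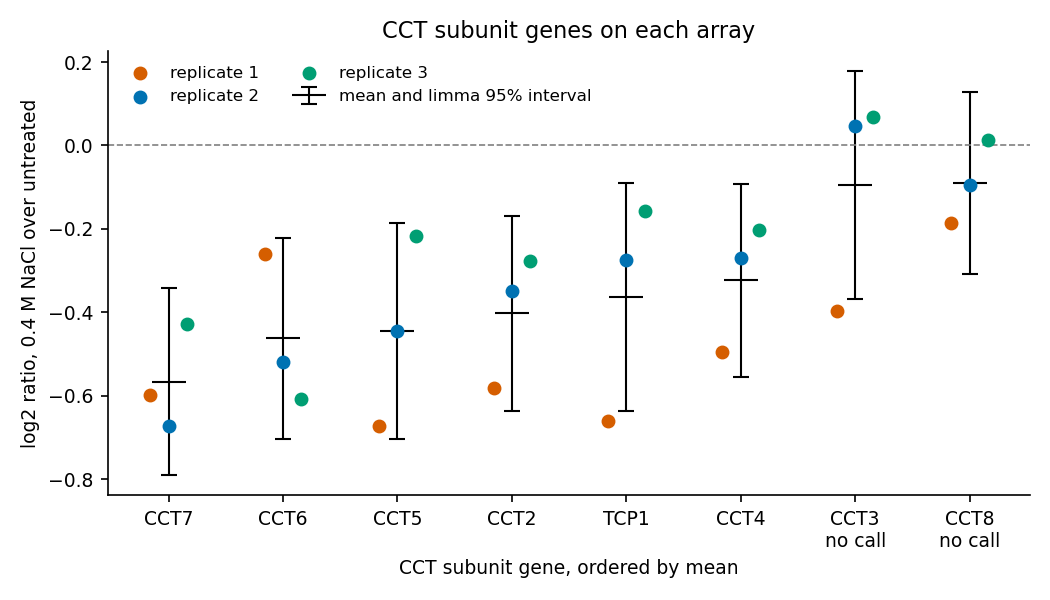
log2 ratio of NaCl over untreated cells (vertical axis) for the 8 CCT subunit genes in the order of their means (horizontal axis). Coloured points are the 3 arrays, and black bars are the mean with the 95% interval from limma. The intervals of CCT7 to CCT4 lie below 0, while those of CCT3 and CCT8 include it.

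The calls rested in part on replicate 2, whose values were the middle ones for 7 of the 8 subunits. Without it CCT7 alone passed, with adjusted p from 0.0537 for CCT5 to 0.144 for CCT4 among the 5 that no longer did, although their means moved little (from -0.45 for CCT5 to -0.35 for CCT4) and the number of all genes that fell went from 1135 to 695. Without replicate 1, TCP1 missed the threshold (mean -0.22, adjusted p = 0.0545) and the mean of CCT3 turned to 0.057.

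The repeated spots show how well each ratio was measured on an array. Over the 8 genes and 3 arrays, the SD between the 7 spots of a gene ran from 0.034 for CCT2 in replicate 1 to 0.123 for TCP1 in replicate 3. Of the 168 spot values, 151 were below 0. They repeat 24 values of a gene on an array, of which 21 were below 0. The share below 0 among all spots was not counted. The SD between the 8 subunits on an array was larger than that between spots, 0.18, 0.23 and 0.22 in replicates 1, 2 and 3. The sources used here do not say whether the spots of a gene carry the same oligonucleotide.

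In replicate 1 the 7 spots of CCT5 (from -0.76 to -0.56) did not overlap those of CCT6 (from -0.32 to -0.19). In replicate 3 the same spots did not overlap either, but lay in the opposite order, with CCT5 from -0.31 to -0.09 and CCT6 from -0.72 to -0.48. How often the spots of other pairs of genes lay apart was not counted, and each array is 1 culture. When each spot of the array was fitted by itself, 35 of the 56 CCT spots fell, against 21.7% of all spots. These were all 7 spots of CCT2, CCT6 and CCT7, 6 of CCT5, 4 each of TCP1 and CCT4, and none of CCT3 and CCT8, while no CCT spot rose, against 26.0% of all spots. The spots of a gene are repeats on the same arrays and add no replicates. The shares over all spots include 16688 spots without a gene symbol, unlike those over named genes.

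**Figure D2:**
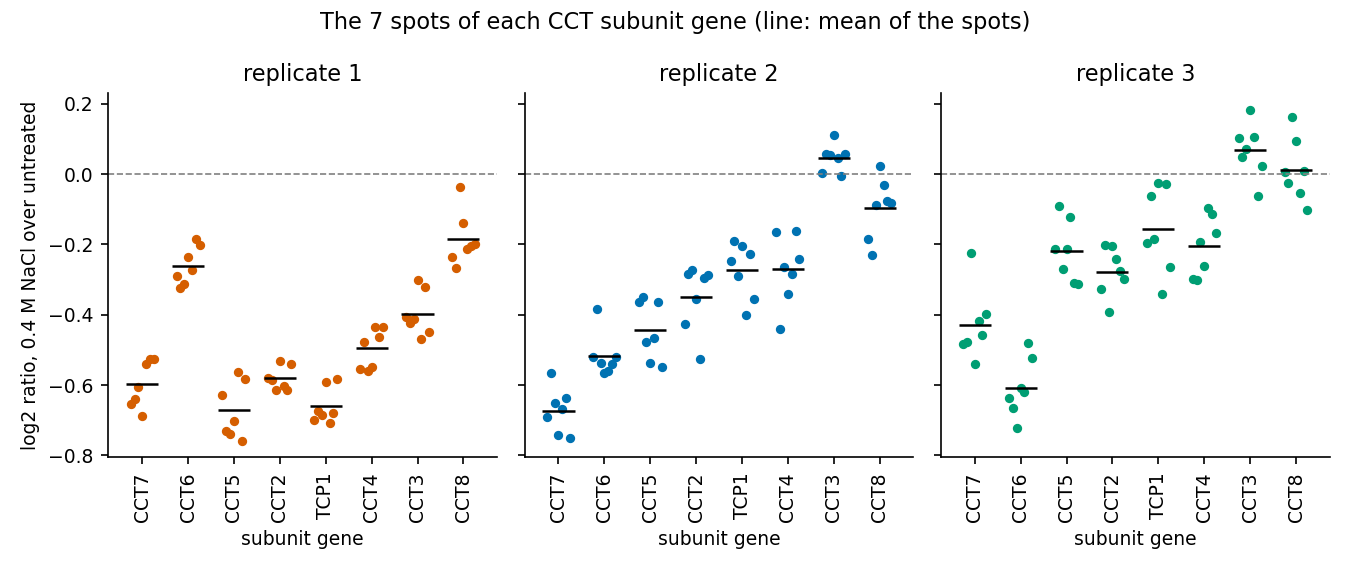
The 7 spots of each CCT subunit gene on the 3 arrays, 1 panel for each array, as log2 ratio of NaCl over untreated cells (vertical axis); black lines are the mean of the spots. The order of the subunits differs between panels, with CCT6 from -0.26 in replicate 1 to -0.61 in replicate 3.

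The means of the 8 subunits over the arrays ran from -0.57 to -0.09, with an SD of 0.17 over subunits. The means of all genes had an SD of 0.79, a value that takes in extremes from -3.70 to 8.04. The median of the 8 was -0.54, -0.31 and -0.21 in replicates 1, 2 and 3 (mean -0.35 ± 0.17, SD, n = 3). Among all 4069 genes ranked by mean ratio, 12.9% were lower than CCT7, 25.2% lower than CCT4 and 43.1% lower than CCT8. The stretch from the lowest to the highest subunit held 1229 genes, 30.2% of all, so that a position in it was not particular to the complex.

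**Figure D3:**
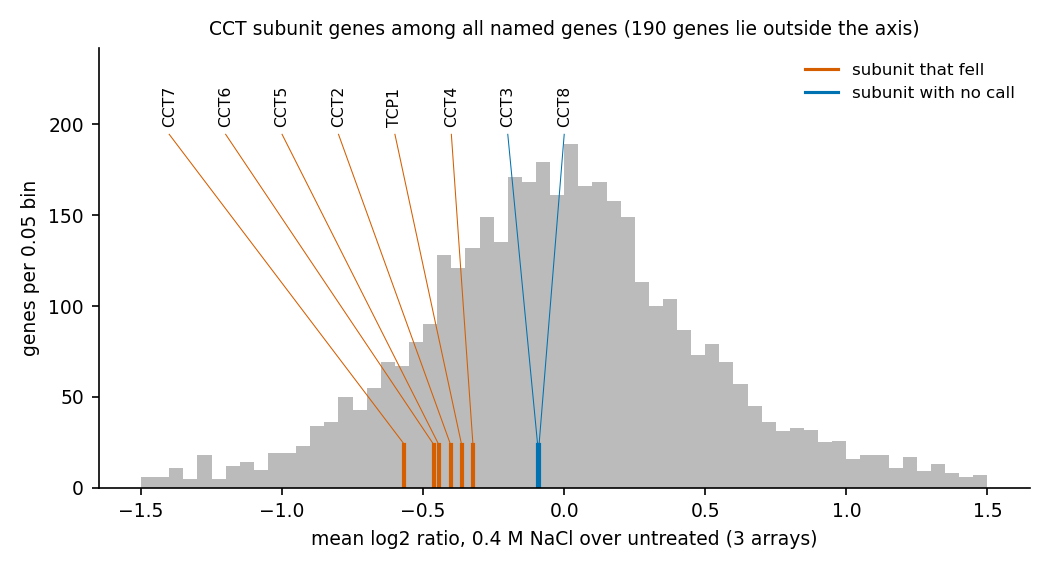
Distribution of the mean log2 ratio over the 3 arrays (horizontal axis, bins of 0.05) for all named genes in grey, with the 8 CCT subunit genes marked. All 8 lie to the left of 0, from -0.57 for CCT7 to -0.09 for CCT8, within the broad centre of the distribution.

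In order of their means the subunits ran CCT7, CCT6, CCT5, CCT2, TCP1, CCT4, CCT3 and CCT8. Of the 7 pairs of neighbours in this order, 6 differed by less than 1 SD over the arrays. The exception was the step from CCT4 to CCT3, with CCT3 higher by 0.10, 0.32 and 0.27 in the 3 replicates (mean 0.23 ± 0.12, SD, n = 3). Between CCT3 and CCT8, which follow, the difference changed sign (0.21, -0.14 and -0.06 for CCT8 minus CCT3). With 3 arrays an exact two-sided sign-flip test of such a difference cannot go below p = 0.25, so the steps are given as values only.

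Over all 28 pairs, 16 differed in the same direction on all 3 arrays. CCT6 took part in 6 of the 12 pairs that changed direction, and of its pairs only that with CCT8 did not. The pairs share genes and arrays and are not independent, and other pairs of genes were not counted. The widest gap, that between CCT7 and CCT8, held on each array, with CCT8 higher by 0.41, 0.58 and 0.44 (mean 0.48 ± 0.09, SD, n = 3). CCT3 lay above TCP1 by 0.26, 0.32 and 0.23, also with little spread (mean 0.27 ± 0.05, SD, n = 3).

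Most of the subunits also shared an order over the 3 arrays. Each culture had its own array, so culture and array cannot be told apart. For 6 of the 8 (TCP1, CCT2, CCT3, CCT4, CCT5 and CCT8) the lowest value was that of replicate 1, which held for 41.6% of all genes, and in the same 6 the highest was that of replicate 3, a combination found in 28.4% of all genes. Set against the mean of each gene over its arrays, the median of the 8 was -0.18 in replicate 1, 0.03 in replicate 2 and 0.13 in replicate 3, while the median of all genes lay between -0.0072 and 0.0020 on every array. CCT6 went the other way, at 0.20, -0.06 and -0.15. CCT7 differed in another manner, with its lowest value in replicate 2. The size of this variation was ordinary, since the median SD over arrays was 0.17 for the 8 subunits and 0.16 for all genes. Replicate 1 is the array that correlated least with the others, and its part in this pattern was not tested.

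**Figure D4:**
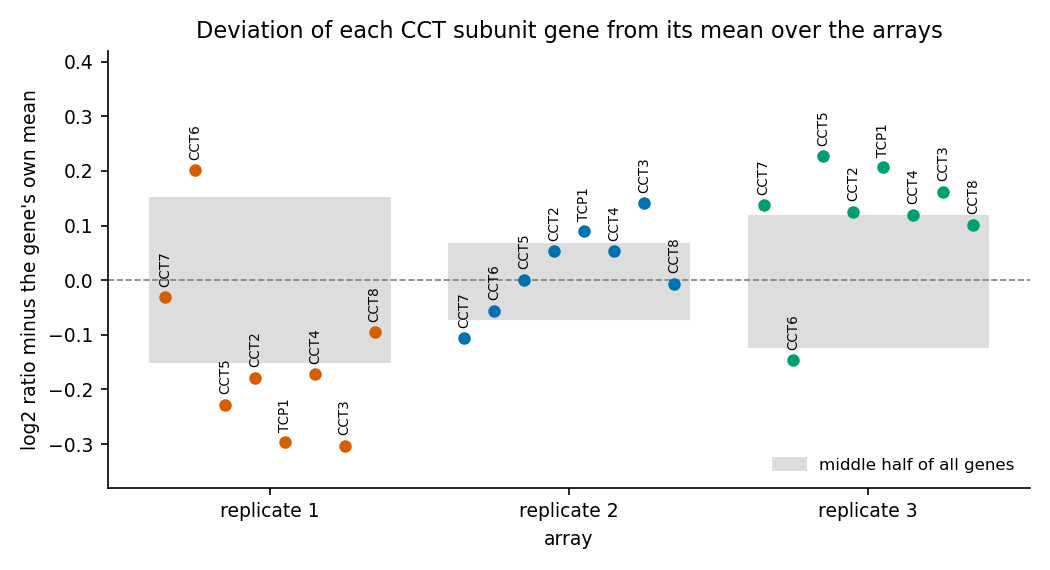
log2 ratio of each CCT subunit gene minus its own mean over the 3 arrays (vertical axis), by array. The grey boxes span the 25th to the 75th percentile of all named genes. In replicate 1, 5 of the subunits lie below the box and CCT6 alone above it, at 0.20.

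Of the genes that work with CCT as prefoldin subunits or phosducin-like cofactors, PAC10 alone passed the test. Of the 6 prefoldin subunits, 1 fell, none rose and 5 did not pass (median of means 0.02). The counts of this and the following lists are to be read against the 27.9% of all genes that fell and the 26.9% that rose. PAC10 fell, with log2 ratios of -0.26, -0.76 and -0.93 (mean -0.65 ± 0.34, SD, n = 3, adjusted p = 0.00447 from limma), being like CCT6 higher in replicate 1 than in the others. Of the rest, YKE2 had a mean of -0.22 and PFD1 one of 0.25. YKE2 was at 0.16, -0.24 and -0.59, and without replicate 1 it passed (mean -0.41, adjusted p = 0.0128 from limma). In that setting 2 of the 6 prefoldin subunits fell (33.3%), against 32.9% of all genes. PLP2, a phosducin-like protein that binds CCT, was at 0.45, 0.04 and -0.09 (mean 0.13, adjusted p = 0.386 from limma).

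Among the substrates, ACT1, the only actin gene of yeast, rose. Its log2 ratios were 1.11, 1.05 and 0.77, with a mean of 0.98 ± 0.18 (SD, n = 3, adjusted p = 0.000140 from limma), a level 1.97-fold higher. All 3 values lay above the highest value of the 8 CCT genes, 0.07. The share of all genes above that value on every array was not counted, while 26.9% of all genes rose. TUB2, the beta-tubulin gene, fell, with -0.39, -0.48 and -0.46 (mean -0.44 ± 0.05, SD, n = 3, adjusted p = 0.00412 from limma), inside the span of the subunits, a call lost without replicate 2 (adjusted p = 0.0664). The alpha-tubulin genes TUB1 and TUB3 had means of 0.13 and -0.04 and did not pass. TUB1 was at -0.22, 0.40 and 0.21, and without replicate 1 it passed as higher (mean 0.30, adjusted p = 0.0208 from limma).

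Of the 3 WD-repeat proteins listed as CCT substrates, CDC20, an activator of the anaphase-promoting complex, fell by 0.93 on the log2 scale (adjusted p = 0.000115 from limma). CDC55, a regulatory subunit of protein phosphatase 2A, rose by 0.61 (adjusted p = 0.00135 from limma), and CDH1 had a mean of -0.15 and did not pass. Of the 6 tubulin folding cofactors, which act on tubulin after CCT, CIN1 (0.82) and ALF1 (0.31) rose, PAC2 (-0.45) and CIN2 (-0.44) fell and 2 did not pass, on the log2 scale. The call of ALF1 was lost without replicate 2 (adjusted p = 0.146).

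Next came the chaperones that bind nascent chains at the ribosome. Of 7 genes, 4 rose, 1 fell and 2 did not pass (median of means 0.52, against 26.9% of all genes that rose, 27.9% that fell and a median of -0.0058). SSB1 and SSB2, the ribosome-bound Hsp70 proteins, rose by 0.82 and 0.59 on the log2 scale, and EGD2 and EGD1 of the nascent polypeptide-associated complex by 0.56 and 0.52, the call of EGD1 being lost without replicate 3 (adjusted p = 0.0665). SSZ1, an Hsp70-like partner of Zuo1 in the ribosome-associated complex, fell by 0.52, while ZUO1 itself had a mean of 0.02. SSB1 and SSB2 are near-identical, and spots of one may measure both.

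Larger ratios were found for some of the heat-inducible chaperones of the cytosol. The disaggregase gene HSP104 and the small heat shock genes HSP42 and HSP26 all rose, by 2.62, 5.20 and 1.80 on the log2 scale. Of 8 genes of cytosolic Hsp70, Hsp110 and their cochaperones, 3 rose, 2 fell and 3 did not pass, with SSA4 at 1.71, the Hsp110 gene SSE2 at 1.49, the J-protein gene SIS1 at 0.97 and SSE1 at -0.46. Both genes that fell, SSE1 and the J-protein gene YDJ1 (mean -0.29), lost their calls without replicate 2 (adjusted p = 0.0582 and 0.421). The genes that did not pass were the Hsp70 genes SSA1 (mean 0.04), SSA2 (-0.05) and SSA3 (0.12). FES1 of this list was not analysed here.

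Of 8 genes of Hsp90 and its cochaperones, 4 rose, 1 fell and 3 did not pass, with HSP82 at 1.88, the adaptor gene STI1 at 0.89 and the cyclophilin gene CPR7 at -0.93. Without replicate 2 the number that rose was 2, as the cochaperone genes SBA1 (adjusted p = 0.0544) and CPR6 (adjusted p = 0.0996) no longer passed, while without replicate 1 AHA1 also rose (adjusted p = 0.0196). In the mitochondrion, HSP60, which encodes the chaperonin of that compartment, was at 0.02, 0.05 and -0.12 (mean -0.02, adjusted p = 0.889 from limma). Of its list of 5 genes, the J-protein gene MDJ1 rose, by 1.91 on the log2 scale, and 4 did not pass. Of these 4, the Hsp70 gene SSC1 fell without replicate 1 (adjusted p = 0.0232) and HSP10, the cochaperonin gene, without replicate 3 (adjusted p = 0.0408).

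Over these 10 lists, 51 of 53 genes were measured, of which 19 rose, 9 fell and 23 did not pass. These were 37.3% and 17.6% of the 51, against 26.9% and 27.9% of all genes. Each of the lists with more than 1 measured gene had a wider SD over its members than the 8 CCT subunits, from 0.34 for prefoldin to 1.78 for the disaggregase and small heat shock genes, against 0.17. The lists differ in size and make-up and were chosen with earlier results of these data known. Several hold genes that rose beside genes that fell, which by itself widens the SD. No test of this difference was run.

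**Figure D5:**
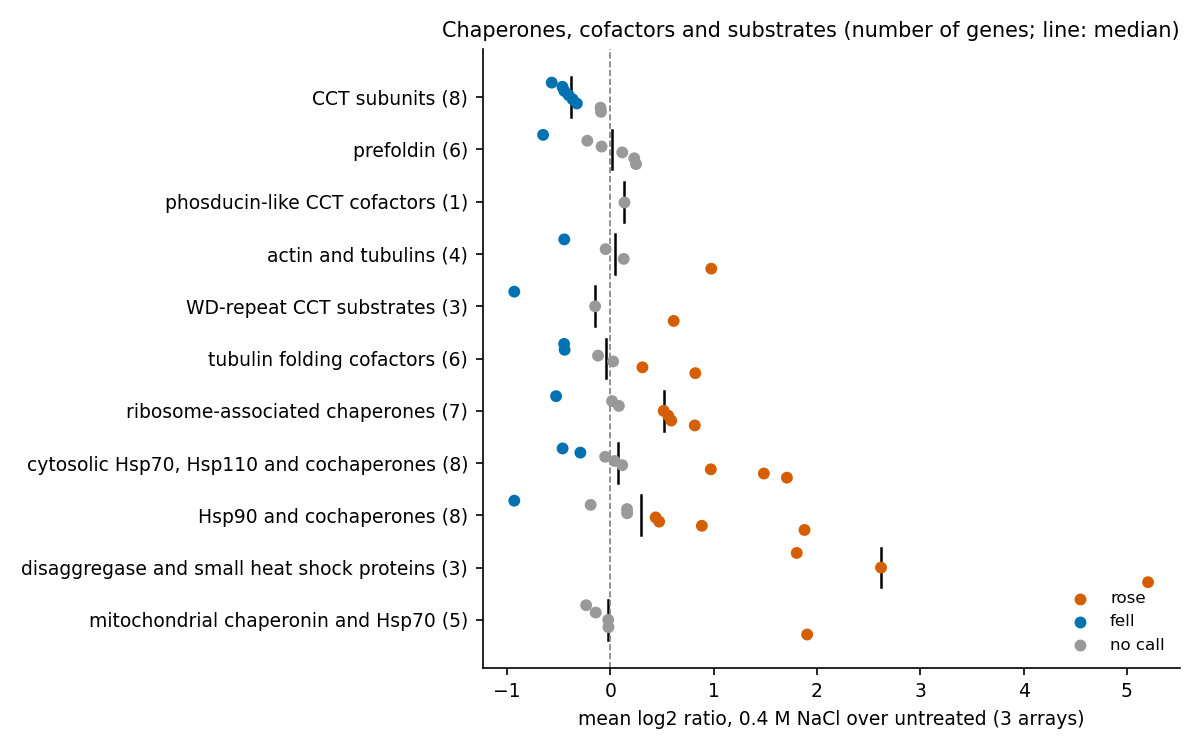
Mean log2 ratio over the 3 arrays (horizontal axis) for the genes of each list (rows, with the number of genes measured); orange points rose, blue points fell and grey points did not pass the limma test, and black lines are medians. The CCT subunits cluster from -0.57 to -0.09, while the other lists with several genes spread to both sides of 0 or, for HSP104, HSP42 and HSP26, lie above it.

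The CCT genes have 16 neighbours on the chromosomes in the reference gene table, of which 11 are named on the array, and 3 of these fell, 4 rose and 4 did not pass. The shares were 27.3% and 36.4%, against 27.9% and 26.9% of all genes. Without replicate 2 the number that rose was 2 (18.2%, against 19.1% of all genes in that setting). SSL2, which encodes a helicase of the general transcription factor TFIIH and is divided from CCT2 by a shared upstream region, rose, with log2 ratios of 0.36, 0.49 and 0.28 against -0.58, -0.35 and -0.28 for CCT2, a call lost without replicate 2 (adjusted p = 0.191). RPA12, a subunit gene of RNA polymerase I upstream of CCT5 on the same strand, fell by 1.78 on the log2 scale (adjusted p = 1.49e-05 from limma), far more than CCT5. GCD6, a translation initiation factor gene upstream of TCP1, fell by 0.41, and AXL2, downstream of CCT2, by 0.63. UPC2, downstream of TCP1, rose by 0.65 and CRD1, which converges on CCT4, by 0.62, and MAD3, which converges on CCT3, rose by 0.31, a call that did not hold without replicate 2 (adjusted p = 0.248).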

How the data were processed

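RNA from 3 cultures was measured on 3 two-colour arrays, 1 per culture. The authors deposited 1 normalized value per spot, used here as a log2 ratio of NaCl over untreated cells. The submitters' processing notes name limma, while the sources used here do not give its version, the background correction, the normalization or any spot filter. Of 45220 spots, 28532 carried 1 gene symbol in the platform annotation. Symbols were updated through the R64 gene table, which was used for names and gene order only, giving 4069 genes.

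Each gene was given the mean of its spots on an array. limma (version 3.58.1, R 4.3.3) fitted an intercept to the 3 ratios of each gene, with empirical Bayes moderation, two-sided p-values and adjustment by Benjamini-Hochberg across the 4069 genes (threshold 0.05). A gene is said to rise or fall only where it passed. The fit was tried on simulated ratios with independent noise and 200 changed genes, far fewer than passed here. That trial checks the code and does not bear on how reliable these calls are. Figures and counts used Python 3.11.15, pandas 2.3.3 and matplotlib 3.10.9. The number of arrays limits the precision.

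The members and gene lists were chosen with earlier results of these data known. Named genes were the 8 subunits, PLP2, ACT1 and the tubulin genes, in each other list up to 3 called members of largest change plus the largest one called the other way, the genes next to each CCT gene, the 5 genes nearest to the mean of the 8 (1 of which is not reported here), and the 5 genes used for direction. YKE2, PFD1, CDH1, ZUO1, HSP60 and the other listed genes outside this rule were named after their values were seen. Alternatives were centring, scaling or quantile normalization of the arrays, robust empirical Bayes, the median of spots, the omission of each replicate, a stricter threshold (0.01), treat of limma against a fold of 1.2 and a fit of each spot.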

Additional observations from a re-analysis of the deposited data

How the results depend on the processing

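The number of CCT subunits that fell was 6 under centring, scale or quantile normalization of the arrays, the median of spots, robust empirical Bayes and a fit of single spots (with 4 or more of 7 spots called). It ranged from 1 to 6 when each replicate was left out, with 1 without replicate 2, and was 2 at an adjusted p of 0.01 (CCT6 and CCT7, against 19.0% of all genes) and 1 in a test against a fold of 1.2 (CCT7). No subunit rose in any of these settings. Over all genes, the number that fell ranged from 695 to 1340 and that of genes that rose from 777 to 1282 when replicates were left out, and against a fold of 1.2 they were 560 and 620. In that test 3 genes of the other folding lists fell, in place of 9. With 1 replicate left out, the mean of CCT3 ranged from -0.18 without replicate 3 to 0.057 without replicate 1, a change of sign. The median of the 8 subunits kept its sign throughout, from -0.43 without replicate 3 to -0.26 without replicate 1. Each value is a ratio of both conditions of 1 culture, so the fit is itself paired, and no further replicate block could be added.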

Other observations

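Outside the folding lists, genes whose ratios came nearest to the mean of the 8 subunits on the 3 arrays included CYS4, which encodes cystathionine beta-synthase, the methionyl-tRNA synthetase gene MES1, ECM10, a mitochondrial Hsp70 gene, and RAI1. Nearness was taken as the largest difference on any array, which was 0.036 for CYS4 and 0.052 for RAI1 on the log2 scale. CCT4, the subunit nearest to the mean of the 8 of which it is part, was at 0.051. These 4 fell, with means from -0.30 for RAI1 to -0.33 for ECM10 (adjusted p from 0.0200 to 0.0312 from limma), and their calls were lost without replicate 2 (adjusted p from 0.162 to 0.197). In all, 932 genes lay nearer to that mean than CCT6, the farthest subunit, so likeness over 3 arrays picks out many genes.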
